A study of Mus musculus with 6 samples.

Results

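Bckdhb encodes the beta subunit of the decarboxylase component of the branched-chain ketoacid dehydrogenase complex, and its primary transcript also gives circular RNAs (circRNAs), RNA rings closed by a back-splice that joins the end of a downstream exon to the start of an upstream one. The circRNAs described here are the rows of the deposited table that lie wholly between positions 83815000 and 84025000 on the plus strand of mouse chromosome 9 (genome build mm9), the window that holds Bckdhb. This rule found 9 of the 3869 circRNAs in the table. The window was picked because circRNAs in it had higher levels on day 8 than on day 0, so their levels by day are a description here and carry no test.

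The cells were primary stromal vascular cells of 6-week-old C57BL/6 mice, from a depot that the labels call inguinal brown adipose tissue. They were grown to near confluence (day 0), then held for 4 days with insulin, dexamethasone and isobutylmethylxanthine (day 4), then for another 4 days with insulin and the thyroid hormone T3 (day 8). Each day had 2 libraries, whose total RNA had been depleted of ribosomal and linear RNA. The labels name no genotype. They do not tell whether a day's libraries are independent cultures or mice, so p-values measure the spread between these libraries alone, and that may be technical. Inferred depth was 40384 to 45733 back-splice reads a library. In such a mixed primary culture, a change in the number of cells of one type and a change in RNA per cell cannot be told apart.

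Branched-chain ketoacid dehydrogenase sits in the mitochondrial matrix and commits leucine, isoleucine and valine carbon to oxidation, after a transaminase has turned the amino acids into ketoacids. Its catalytic core joins the decarboxylase, an acyltransferase (Dbt) and a dehydrogenase (Dld), and a kinase (Bckdk) and a phosphatase (Ppm1k) switch it off and on. Brown fat is known as a tissue that clears branched-chain amino acids, and adipocytes use their carbon for fatty acid synthesis. A circRNA of this gene shares exons with the messenger RNA but is a separate molecule, and its level does not give the level of the messenger RNA or of the protein.

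The back-splice ends could be read as exons. The members use 4 distinct starts and 4 distinct ends, and 6 of these 8 positions lie at the same distances from one another as exon starts and ends of an 11-exon Bckdhb transcript in the GENCODE M21 annotation. That annotation is on another build (GRCm38), so only distances were compared, and at any other shift at most 1 position met an exon boundary. The most abundant member, mmu_circ_0001822 (chromosome 9, 83882383 to 83906226), runs from the start of exon 4 to the end of exon 8. The member mmu_circ_0015952 (83846131 to 83885429) runs from exon 2 to exon 6, and mmu_circ_0015953 (83846131 to 83906226) from exon 2 to exon 8. These 3 carry circBase identifiers, that is, they are in a public catalogue of circRNAs, and the other 6 do not. Of those, 1 runs from exon 4 to exon 9 (83882383 to 83962798), 1 from exon 4 to exon 7 (83882383 to 83903958) and 1 from exon 2 to exon 9 (83846131 to 83962798). The remaining 3 start outside annotated exons: 2 start 241 bp before exon 2 and end at exon 6 (83845890 to 83885429) or exon 8 (83845890 to 83906226), and 1 starts 2798 bp before exon 4 and ends at exon 9 (83879585 to 83962798). All exons from 2 to 9 are coding in that transcript.

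The junction is the only stretch that tells a circRNA from its linear host, so the junctions of 4 members are printed. Each gives the last 25 bases of the downstream exon in lower case and the first 25 bases of the upstream exon in capitals, 5′ to 3′ on the sense strand, built from the exon sequences of the GENCODE M21 transcript and not read from these libraries.
mmu_circ_0001822, exon 8 to exon 4: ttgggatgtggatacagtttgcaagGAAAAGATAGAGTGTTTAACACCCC
mmu_circ_0015952, exon 6 to exon 2: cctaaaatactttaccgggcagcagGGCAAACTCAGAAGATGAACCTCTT
mmu_circ_0015953, exon 8 to exon 2: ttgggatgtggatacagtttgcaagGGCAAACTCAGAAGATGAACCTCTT
exon 4 to exon 9 circRNA, exon 9 to exon 4: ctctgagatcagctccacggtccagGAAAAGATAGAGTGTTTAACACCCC
The lines of mmu_circ_0001822 and mmu_circ_0015953 share their lower-case part, the end of exon 8. Those of mmu_circ_0015952 and mmu_circ_0015953 share their capitals, the start of exon 2. The start of exon 4 is shared by mmu_circ_0001822 and the exon 4 to exon 9 circRNA.

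For the most abundant member the whole of both exons beside the back-splice is printed, exon 8 in lower case and then exon 4 in capitals.
mmu_circ_0001822, exon 8 and exon 4: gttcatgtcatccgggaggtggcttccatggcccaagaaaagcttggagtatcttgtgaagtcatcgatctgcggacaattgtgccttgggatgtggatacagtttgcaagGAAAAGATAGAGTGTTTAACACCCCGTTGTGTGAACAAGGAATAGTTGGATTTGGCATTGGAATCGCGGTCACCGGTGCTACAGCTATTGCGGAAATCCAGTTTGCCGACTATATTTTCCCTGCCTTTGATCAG
The exons from 4 to 8, if all are kept, give a circle of 608 bases with a G and C content of 50.2%. The table gives only the joined ends, so exons skipped inside a circle, or introns kept in it, would not be seen. With all exons kept, the exon 2 to exon 6 circle has 546 bases, a multiple of 3. The circles of exons 4 to 8 (608 bases), 2 to 8 (755), 4 to 9 (695), 4 to 7 (497) and 2 to 9 (842) each leave a remainder of 2 bases.

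The annotated ends sit beside the long introns of the gene. Of the 10 introns of the transcript, 5 are longer than 10000 bp, and these are introns 1, 3, 6, 8 and 9 with 27164, 34994, 18431, 56485 and 53042 bp. The starts at exons 2 and 4 lie directly after introns 1 and 3. The ends at exons 6, 8 and 9 lie directly before introns 6, 8 and 9. The end at exon 7, before an intron of 2157 bp, is the exception, and its circRNA is among the scarcest members.

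**Figure D1:**
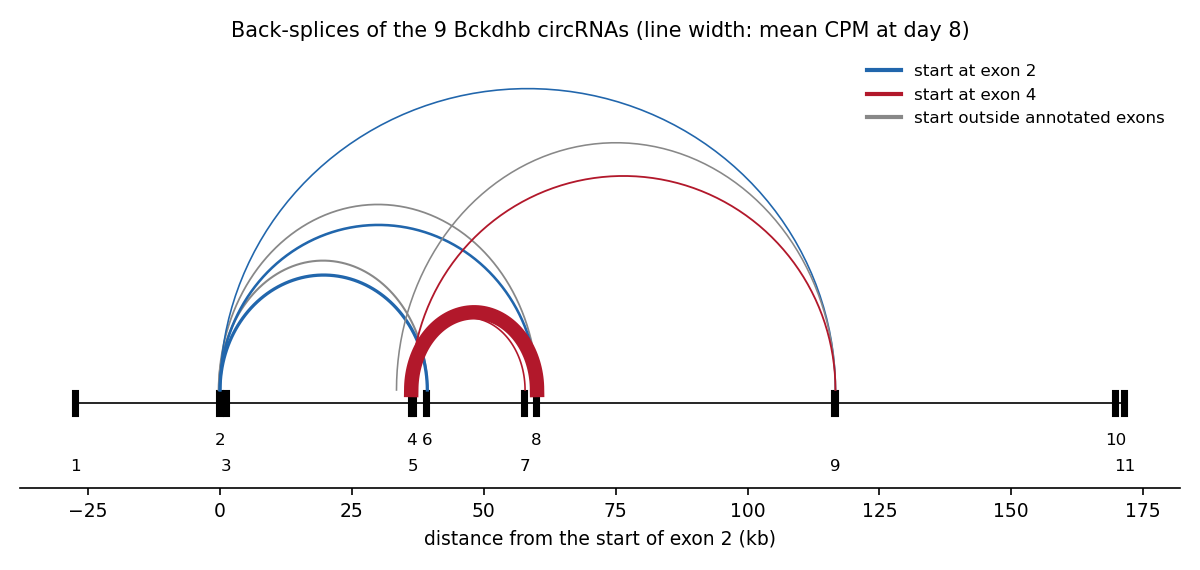
Map of the 9 back-splices on the exons of Bckdhb (black boxes, not to width, numbered), with distance from the start of exon 2 in kb on the x axis. Each arc joins the 2 ends of a circRNA, its width grows with the mean CPM on day 8, and the widest arc, from exon 4 to exon 8, stands for 5618 CPM.

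Levels are given in CPM as deposited, that is, back-splice reads scaled to the same total over all listed circRNAs in each library. The sum of the 9 members was 1578 and 1453 CPM in the day 0 libraries, 3302 and 3293 CPM on day 4, and 8403 and 6893 CPM on day 8. These sums rest on 68 and 60, 151 and 133, and 343 and 291 inferred reads. The order of the days was the same in every library, with no overlap between neighbouring days. The mean was 1515 ± 88.4 CPM on day 0, 3298 ± 5.93 CPM on day 4 and 7648 ± 1067 CPM on day 8 (SD, n = 2). By its mean, the locus stood at place 134 of 2511 loci on day 0, place 42 on day 4 and place 13 on day 8, where a locus is a set of circRNAs that overlap on 1 strand.

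The log2 difference of the sum, fitted by limma on log2(CPM + 43.7) after scaling of the libraries, was 1.15 (SE 0.15) between days 0 and 4 and 1.24 (SE 0.15) between days 4 and 8. The contrast of day 4 with the mean of days 0 and 8 is independent of the one that picked the window, and it was tested. It was -0.05 (SE 0.13, 95% interval -0.38 to 0.28), with a limma adjusted p of 0.874 over all 2511 loci, of which 10.8% were called at an adjusted p under 0.05. The interval allows a day 4 level up to 0.38 lower or 0.28 higher on the log2 scale. For the sum of the other 8 members, without the circle of exons 4 to 8, the value was -0.49 (limma adjusted p = 0.217). Some members are in the table only because both day 8 libraries were above 0, so neither sum is free of the listing. Their means on day 8 were 60.4 to 134 CPM each, against 2030 CPM for the other 8 together.

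The circRNA of exons 4 to 8, mmu_circ_0001822, carried most of the sum. It had 859 and 726 CPM on day 0 (37 and 30 reads), 2449 and 2451 CPM on day 4 (112 and 99 reads) and 5953 and 5282 CPM on day 8 (243 and 223 reads). Both libraries of each day lay above both of the day before. The mean on day 8 was 7.09 times that on day 0, and the log2 differences were 1.63 (SE 0.17) over the first 4 days and 1.23 (SE 0.17) over the next 4. By its mean it was at place 227 of the 3869 circRNAs on day 0, place 43 on day 4 and place 12 on day 8. Its day 4 level against the mean of days 0 and 8 was 0.20 (SE 0.15, limma adjusted p = 0.471).

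The circRNA of exons 2 to 6, mmu_circ_0015952, had its lowest levels on day 4. It had 441 and 557 CPM on day 0, 328 and 173 CPM on day 4 and 980 and 569 CPM on day 8, from 19 and 23, 15 and 7, and 40 and 24 reads. Both day 4 libraries lay below both day 0 libraries, and the lower day 8 library lay just above the higher day 0 library. Its log2 difference was -0.88 (SE 0.43) between days 0 and 4 and 1.52 (SE 0.43) between days 4 and 8. The day 4 level against the mean of days 0 and 8 was -1.20 (SE 0.37), which was not called (limma adjusted p = 0.111 over all 3869 circRNAs).

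The circRNA of exons 2 to 8, mmu_circ_0015953, combines the start of the one just described with the end of the most abundant member. No read of it was listed on day 0, and it had 372 and 297 CPM on day 4 (17 and 12 reads) and 612 and 355 CPM on day 8 (25 and 15 reads). Days 4 and 8 overlapped, since the lower day 8 library lay between those of day 4. No fold is given against day 0, where 0 may stand for 1 read. The day 4 level against the mean of days 0 and 8 was 1.31 (SE 0.44, limma adjusted p = 0.136). Its size depends on the pseudocount, the 43.7 CPM added before the log. It was 3.92 with a pseudocount of 1 CPM and 0.49 with one 5 times larger than 43.7 CPM.

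The circRNA that starts 241 bp before exon 2 and ends at exon 6 was the only other member with 10 or more reads in 2 or more libraries. It had 209 and 72.6 CPM on day 0, 0 and 74.3 CPM on day 4, and 269 and 261 CPM on day 8, from 9 and 3, 0 and 3, and 11 and 11 reads. Its mean, like that of the annotated exon 2 to exon 6 circle, was lowest on day 4, but its libraries of days 0 and 4 overlapped. Its day 4 level against the mean of days 0 and 8 was -1.70 (SE 0.67, limma adjusted p = 0.181). This value too depends on the pseudocount, with -4.41 at 1 CPM and -0.72 at the larger one. The same unannotated start joined to exon 8 had 0 and 96.9 CPM on day 0, 87.5 and 0 CPM on day 4, and 196 and 71.1 CPM on day 8, so its days overlapped. Both circRNAs with this start were scarcer at each day than the circle of exons 2 to 6.

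The other members had at most 12 reads in any library. The exon 4 to exon 9 circRNA was listed at 0 on day 0 and had 65.6 and 297 CPM on day 4 and 147 and 166 CPM on day 8. The exon 2 to exon 9 circRNA had 69.6 and 0 CPM on day 0, 0 in both libraries on day 4, and 73.5 and 71.1 CPM on day 8. The circRNA of exons 4 to 7 (98.0 and 71.1 CPM on day 8, from 4 and 3 reads) and the one that starts 2798 bp before exon 4 (73.5 and 47.4 CPM, from 3 and 2 reads) were listed at 0 on days 0 and 4. In all, 4 of 9 members were above 0 in each day 0 library, 5 in each day 4 library and 9 in each day 8 library. A row is in the table only if both libraries of some day were above 0, and 2 of the 9 members were above 0 on day 8 alone. The exon 2 to exon 9 circRNA and the one from the unannotated start before exon 2 to exon 8 also met this condition through day 8 alone.

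**Figure D2:**
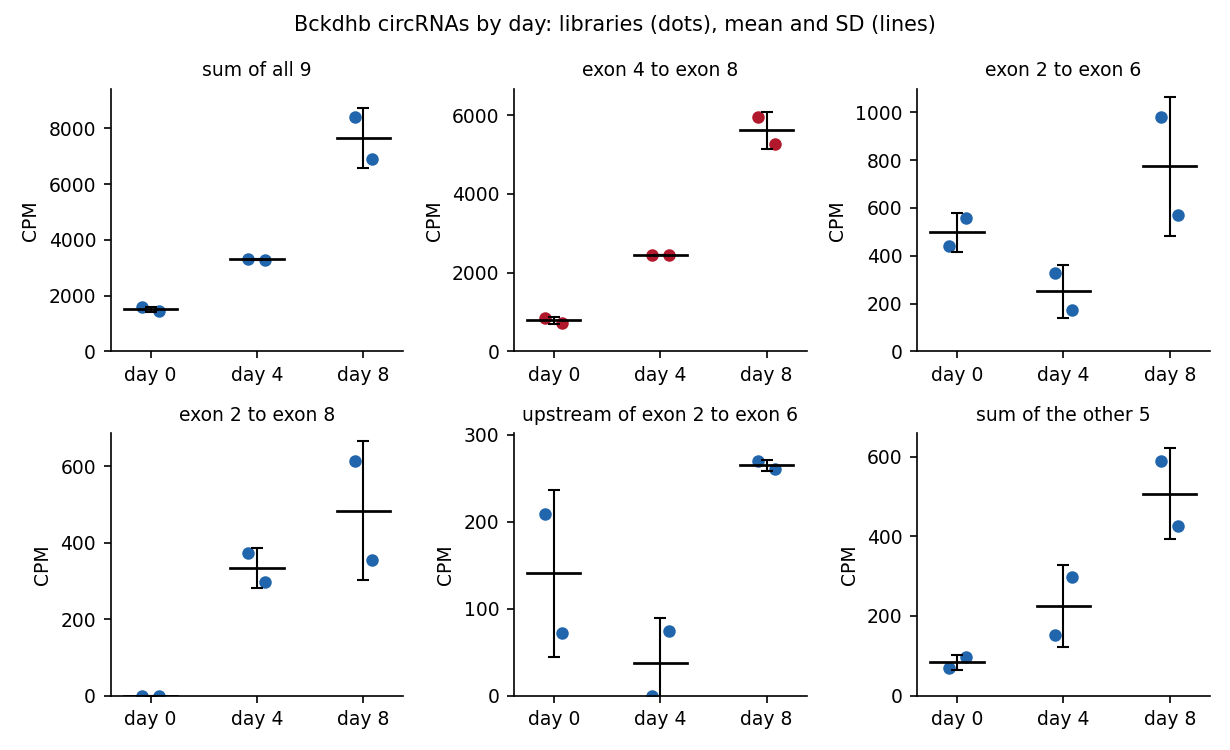
CPM (y axis, from 0, a scale of its own in each panel) by day for the sum of the 9 members, the 4 members with 10 or more reads in 2 or more libraries, and the sum of the other 5; dots are the 2 libraries of a day, lines the mean and SD. The exon 4 to exon 8 means go from 792 to 5618 CPM, while the exon 2 to exon 6 mean is lowest on day 4, at 251 CPM.

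In 8 of the 9 members both day 8 libraries lay above both day 0 libraries, as they did in 26.2% of all listed circRNAs. Nothing is read from this count, because the window was chosen on this contrast. Both day 4 libraries lay above both day 0 libraries in 3 of 9 (21.7% of all circRNAs), and both day 8 libraries above both day 4 libraries in 6 of 9 (24.6%). Some of the members counted are at 0 on day 4 and are in the table through day 8 alone. The listing fixed their order between those days, and nothing is read from these 2 counts. By limma 2 of 9 members were higher on day 4 than on day 0 (3.95% of all circRNAs), 3 of 9 higher on day 8 than on day 4 (6.05%) and 4 of 9 higher on day 8 than on day 0 (7.52%), and from these counts nothing is read either. The median log2 difference of the members was 0.00 in the first 4 days, 1.27 in the next 4 and 1.27 over the whole course. Over all circRNAs the medians were 0.00, 0.06 and 0.05. The 0.00 of the members is the value of circRNAs at 0 in the libraries of both days. The 1.27 is that of the circRNA starting before exon 4, which was at 0 on days 0 and 4. Its size is set by the pseudocount, and nothing is read from these medians. When day 4 was set against the mean of days 0 and 8, limma called 0 of 9 members higher (4.03% of all circRNAs) and 2 of 9 lower, with 10.9% of all circRNAs called in either direction. They are the 2 members above 0 on day 8 alone, with at most 4 reads in a library. Since both entered the table only through day 8, a day 4 level below the mean of days 0 and 8 was fixed by the listing, and nothing is read from these calls. Both calls were lost without either day 4 library (limma adjusted p = 0.107 to 0.180), and that of the circRNA starting before exon 4 also without either day 0 library (0.0846 and 0.0891).

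The window was not chosen on the make-up of the locus. The circle of exons 4 to 8 held most of the rise it was chosen on, so the shares are not independent of that choice. The circle of exons 4 to 8 held 54.4% of the summed CPM in day 0 replicate 1 (95% Clopper-Pearson interval 41.9 to 66.5%) and 50.0% in replicate 2 (36.8 to 63.2%). It held 74.2% (66.4 to 80.9%) and 74.4% (66.2 to 81.6%) on day 4, and 70.8% (65.7 to 75.6%) and 76.6% (71.3 to 81.4%) on day 8. The intervals cover counting error only. Both day 0 libraries lay below all 4 later ones, and the libraries of days 4 and 8 overlapped. The means were 52.2% ± 3.12, 74.3% ± 0.187 and 73.7% ± 4.09 (SD, n = 2).

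The exon 2 to exon 6 circle held 27.9 and 38.3% of the sum on day 0, 9.93 and 5.26% on day 4, and 11.7 and 8.25% on day 8. The exon 2 to exon 8 circle was listed at 0 on day 0 and held 11.3 and 9.02% on day 4 and 7.29 and 5.15% on day 8. Without the exon 4 to exon 8 circle, the sum of the other 8 members was 719 and 726 CPM on day 0, 853 and 842 CPM on day 4, and 2450 and 1611 CPM on day 8. Their mean on day 4 was 1.17 times that on day 0, against 2.18 times for the whole sum. Their mean on day 8 was 2.40 times that on day 4, against 2.32 times for the whole sum. In CPM the circle of exons 4 to 8 held most of the difference in both steps, with means of 792, 2450 and 5618 CPM against 1515, 3298 and 7648 CPM for the sum. The means of the other 8 between days 0 and 4 net opposite differences, such as 0 and 334 CPM for mmu_circ_0015953 and 499 and 251 CPM for mmu_circ_0015952.

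**Figure D3:**
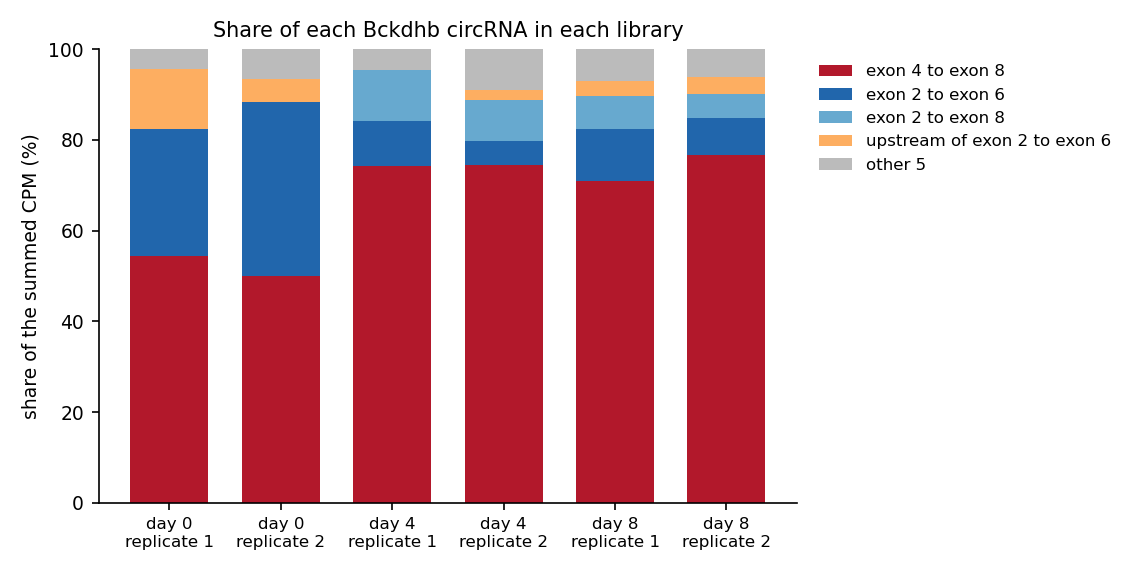
Stacked bars of the share of each member in the summed CPM of each library (y axis, percent), with the 5 scarcer members joined. The exon 4 to exon 8 part is 50.0 to 54.4% high in the day 0 bars and 70.8 to 76.6% in the others.

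The shares of days 0 and 4, and of days 4 and 8, were then fitted. Since they are not independent of the choice of the window, the p-values of the members are given as a description. For each of 2068 circRNAs in loci with 2 or more, the log2 ratio of the circRNA to the rest of its locus was fitted with limma. From day 0 to day 4 this ratio differed by 1.36 for the exon 4 to exon 8 circle (SE 0.64, 95% interval -0.12 to 2.85, limma adjusted p = 0.348). It differed by -2.48 for the exon 2 to exon 6 circle (SE 0.66, limma adjusted p = 0.199) and by 2.16 for the exon 2 to exon 8 circle (SE 0.55, limma adjusted p = 0.193). The last value is set by the pseudocount, because this circle is listed at 0 on day 0. It was 7.41 with a pseudocount of 1 CPM, where it was called (limma adjusted p = 0.0168), and 0.46 with one 5 times larger than 43.7 CPM. No circRNA of the table was called (0%, with 308 of the 2068 at an unadjusted p under 0.05, 6 of the 9 members among them). The 6 include the circRNA of exons 4 to 7 and the one that starts before exon 4, both at 0 on days 0 and 4. Their ratios come from the pseudocount and the denominator alone, and nothing is read from this count. From day 4 to day 8 the ratios differed by -0.01, 0.32 and -0.81 (limma adjusted p = 0.997, 0.896 and 0.646). Here too no circRNA was called (0%), with 223 at an unadjusted p under 0.05 and none of the 9 members among them. The 95% interval for the exon 4 to exon 8 circle was -1.49 to 1.47, and differences inside it are not excluded. The shares of 1 locus share a denominator, so the members are not independent here.

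The same reads can be grouped by the exon at which a circle ends. Circles ending at exon 8 summed to 859 and 823 CPM on day 0, 2908 and 2749 CPM on day 4, and 6762 and 5709 CPM on day 8. Circles ending at exon 6 summed to 650 and 630 CPM on day 0, 328 and 248 CPM on day 4, and 1249 and 829 CPM on day 8. On day 0 the mean share was 55.5% ± 1.59 for exon 8 and 42.3% ± 1.53 for exon 6. On day 4 exon 8 held 85.8% ± 3.27 and exon 6 8.73% ± 1.71, and on day 8 81.6% ± 1.66 and 13.4% ± 2.01 (SD, n = 2). The day 0 libraries lay apart from all later ones for both ends. Ends at exon 9 held 2.21 to 5.50% in the means of the 3 days, and the end at exon 7 was listed on day 8 alone.

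Starts were grouped in the same way. The start of exon 4 held 52.2% ± 3.12 of the sum on day 0, 79.8% ± 5.16 on day 4 and 76.9% ± 4.46 on day 8. The start of exon 2 held 35.3% ± 4.23, 17.7% ± 4.88 and 17.1% ± 3.81. The unannotated start before exon 2 held 12.5% ± 1.11, 2.45% ± 0.278 and 5.18% ± 0.515 (SD, n = 2). End usage was not tested as such, and its values come from the same reads as the shares of single circles.

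**Figure D4:**
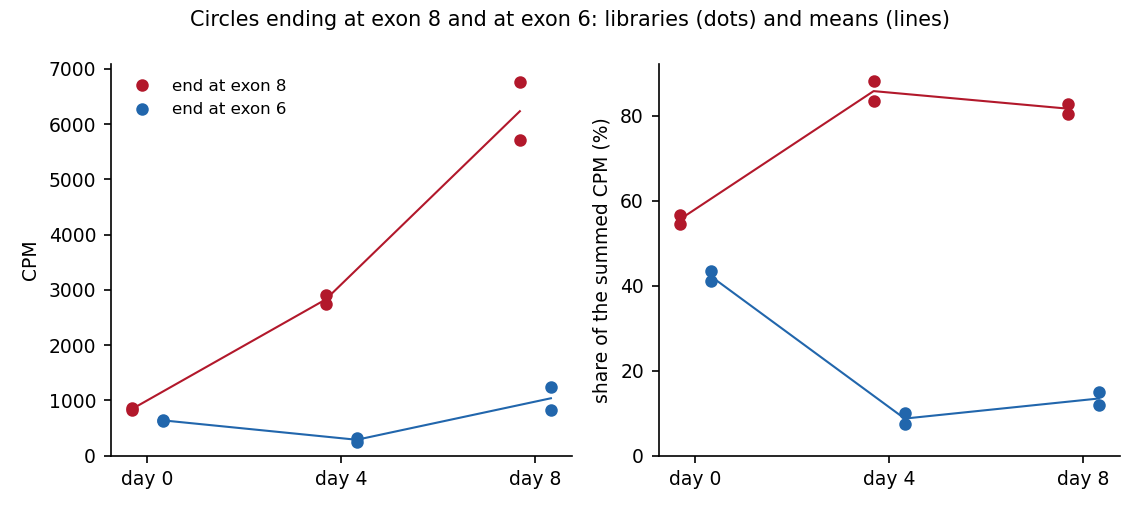
Summed CPM (y axis of the left panel) and share of the summed CPM in percent (y axis of the right panel) of the circles that end at exon 8 and at exon 6, by day; dots are libraries and lines join the means. The exon 6 points are 41.2 and 43.3% of the sum on day 0 and between 7.52 and 14.9% afterwards.

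Outside the window the table is sparse on this strand. The nearest circRNA before it (83739520 to 83744315, with ends matching Ttk) had 92.8 and 48.4 CPM on day 0 and was listed at 0 on days 4 and 8. It lies 101575 bp before the first member. The nearest after it (mmu_circ_0015965, 86425322 to 86430129, with ends matching Dop1a) lies 2462524 bp beyond the last member and had 0 and 96.9 CPM on day 0, 197 and 0 CPM on day 4, and 147 and 94.8 CPM on day 8. No row lay near either limit of the window, so its exact limits decided no membership.

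The loci most like Bckdhb in course were found by the Euclidean distance between log2 sums over the 6 libraries, each centred on its own mean, among the 1255 other loci with a mean of at least the median. Host genes of these loci were named where the ends lay an exon-pair distance apart. The closest was a single circRNA of Slc1a5, a neutral amino acid transporter of the plasma membrane (chromosome 7, 17371025 to 17372261, distance 0.59). It had 139 and 121 CPM on day 0, 372 and 297 CPM on day 4 and 1421 and 782 CPM on day 8. Next came 7 circRNAs of Rnf13, a ubiquitin ligase (chromosome 3, 57568179 to 57611049, distance 0.67), with 414 ± 71.3, 1126 ± 263 and 1841 ± 110 CPM. A locus of 2 circRNAs with no host named (chromosome 6, 129130651 to 129134331, distance 0.73) had 393 ± 129, 1005 ± 125 and 2199 ± 408 CPM.

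Then came the locus of Gbe1, the glycogen branching enzyme (3 circRNAs, chromosome 16, 70401979 to 70495644, distance 0.83), with 404 ± 45.7, 1507 ± 215 and 3275 ± 24.3 CPM. After it came 1 circRNA of Rad52, a DNA repair protein (chromosome 6, 119870128 to 119871046, distance 0.88), with 142 ± 29.2, 492 ± 170 and 799 ± 360 CPM (SD, n = 2 for all). All 5 had less CPM than the Bckdhb sum in each library. The distances describe likeness over 6 libraries of 1 course, with no test.

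**Figure D5:**
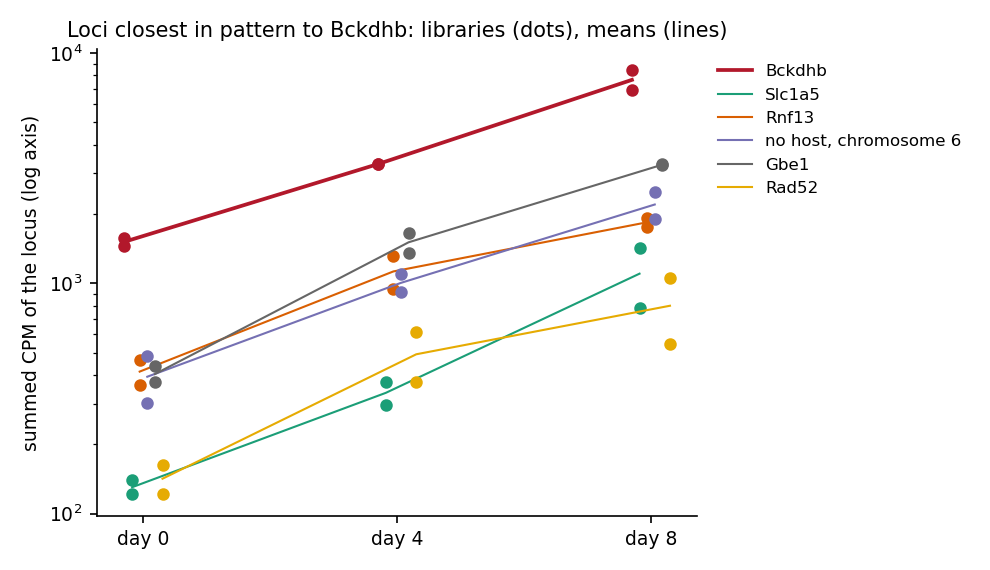
Summed CPM (y axis, log scale) by day for Bckdhb and the 5 loci closest to it in course; dots are libraries and lines join the means. All 6 lines are lowest on day 0 and highest on day 8, with Bckdhb at 1515 to 7648 CPM above the others.

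Other genes of branched-chain amino acid breakdown were looked up by a list of 30 genes, Bckdhb included. Of the other 29, 8 had a circRNA matched by exon distances, 11 circRNAs in all. For Bckdha, the alpha subunit that pairs with Bckdhb, 1 circRNA (chromosome 7, 26426476 to 26426845) was listed at 0 on day 0 and had 0 and 74.3 CPM on day 4 and 73.5 and 71.1 CPM on day 8 (limma adjusted p = 0.119 between days 0 and 8). For the acyltransferase Dbt, Dld, the kinase Bckdk and the phosphatase Ppm1k no circRNA was matched. For Bcat1, the cytosolic transaminase of the first step, mmu_circ_0013174 had 394 and 266 CPM on day 0 and 269 and 190 CPM on day 8 (limma adjusted p = 0.603).

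Between day 0 and day 8, 1 of the 11 was called higher and 1 lower, where 12.4% of all circRNAs were called. The higher one was mmu_circ_0013437 of Hibadh, a dehydrogenase of valine breakdown, which rose from 1091 and 896 CPM on day 0 through 1531 and 1090 CPM on day 4 to 2082 and 1919 CPM on day 8 (log2 difference 1.08, SE 0.25, limma adjusted p = 0.0432). Both day 8 libraries lay above the 4 earlier ones, but the call was lost without either day 0 library or either day 8 library (limma adjusted p = 0.155 to 0.228). The lower one was mmu_circ_0015672 of Acat1, a thiolase of isoleucine breakdown, with 69.6 and 96.9 CPM on day 0 (3 and 4 reads) and 0 in the 4 later libraries (limma adjusted p = 0.00181). It is in the table through day 0 alone, so its direction against day 0 was fixed by the listing and the call is no support for a fall.

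Between day 0 and day 4 none of the 11 was called higher, and the Acat1 circRNA was called lower (limma adjusted p = 0.00279), where 8.17% of all circRNAs were called. This call, with its direction fixed in the same way, was lost in a fit of the 4 libraries compared (limma adjusted p = 0.0757) and without the mean-variance trend (0.0602). The circRNA of Pcca exons mmu_circ_0005021, whose host encodes a propionyl-CoA carboxylase subunit, had 186 and 145 CPM on day 0, 569 and 545 CPM on day 4 and 294 and 450 CPM on day 8, and was not called (limma adjusted p = 0.0521). Between day 4 and day 8 limma called 0 of the 11 (9.49% of all circRNAs). At an unadjusted limma p under 0.05, 3 of the 11 were higher and 1 lower on day 4 than on day 0. Day 8 against day 4 had 1 higher and 0 lower, and day 8 against day 0 had 5 higher and 1 lower. The share of all circRNAs at this unadjusted level is not given, and nothing is read from these counts. The median log2 difference of the 11 was 0.70 in the first 4 days, 0.00 in the next 4 and 0.98 over the whole course. Each median is the value of a scarce circRNA at 0 in both libraries of a day compared. They depend on the pseudocount, and nothing is read from them. Whether Bckdhb differed from the 11 was not tested.

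Circles whose ends match marker genes of cell types had these values over the same days. Of 6 adipocyte markers, 3 (Cd36, Lipe and Pparg) had circRNAs, which summed to 218 to 232 CPM on day 0, 306 to 817 CPM on day 4 and 1421 to 1470 CPM on day 8, while none was matched for Adipoq, Fabp4 and Plin1. Of 6 brown adipocyte markers, 2 (Ebf2 and Prdm16) summed to 325 to 436, 272 to 284 and 196 to 237 CPM, with none matched for Ucp1, Cidea, Ppargc1a and Dio2. Of 3 macrophage markers, Adgre1 was listed at 0 on day 0 and had 0 to 131 CPM on day 4 and 392 to 450 CPM on day 8, with none for Cd68 and Csf1r. Of 5 preadipocyte and fibroblast markers, Pdgfra had 43.7 to 198 CPM on day 4 and 0 on days 0 and 8. No endothelial marker of 3 and no muscle marker of 3 had a matched circRNA. The part of these in the Bckdhb values was not tested.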

How the data were processed

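The authors deposited 1 table with a CPM column per library, back-splice reads normalized to the same total over the listed circRNAs in each library; per the submitters' processing notes, FastQC 0.11.9, HISAT2 2.2.0 and the mm9 build were used, and a circRNA caller was not given in the sources used here. Column names give day and replicate. Values were whole multiples of 1 step per library (deviating by at most 2.52e-07 of it), and no non-zero value was below 2 steps, so reads were inferred as steps (40384 to 45733 a library) and no count test was run; the planned count test was left out for this reason. An entry of 0 may be 1 read. The values were scaled by trimmed-mean factors and fitted over all 6 libraries with limma 3.58.1 (R 4.3.3, mean-variance trend) on log2(CPM + 43.7), the smallest non-zero value, over all 3869 circRNAs or 2511 loci. Benjamini-Hochberg adjusted p under 0.05 counts as called. The procedure was run on simulated counts in which only circRNAs with a mean of 10 or more reads were changed. That run tells nothing of the scarcer members. Between 2 days the lowest two-sided p that an exact permutation test allows is 0.333. Hosts were named where the ends lay an exon-pair distance apart in GENCODE M21 (3321 of 3869 circRNAs) at a shift between builds shared by at least 3 loci of the chromosome; no coordinates were converted. All members are accounted for, those with 10 or more reads in 2 or more libraries in full; beside them the 5 loci closest in course and the nearest rows outside the window are named. The members and lists were chosen with earlier results of these data known.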

Additional observations from a re-analysis of the deposited data

Results flagged for a closer look

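The contrast of day 4 with the mean of days 0 and 8, which asks whether the change of the first 4 days differs from that of the next 4, was called by limma for 2 of the 9 Bckdhb circRNAs. It was -0.79 on the log2 scale for the circRNA of exons 4 to 7 (limma adjusted p = 0.0176) and -0.63 for the one that starts 2798 bp before exon 4 (limma adjusted p = 0.025). Neither had a listed read before day 8, when they had 2 to 4 reads a library. Both are in the table only because both day 8 libraries were above 0, so the sign of this contrast was fixed by the listing, and the calls support nothing. Both calls were lost with a pseudocount 5 times larger (limma adjusted p = 0.0625 and 0.081) and without the mean-variance trend (0.157 and 0.212). The call of the circRNA of exons 4 to 7 was lost without day 4 replicate 1 (limma adjusted p = 0.107) or day 4 replicate 2 (0.115). That of the other one was lost whenever 1 library of day 0 (0.0891 without the first, 0.0846 without the second) or 1 of day 4 (0.161 and 0.18) was left out. The circRNA of exons 2 to 9 was not called with all libraries but was with 1 day 0 library left out (limma adjusted p = 0.00371 without the first and 0.0176 without the second). It too was at 0 on day 4 and met the listing condition through day 8 alone, so its sign was fixed likewise.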

How the results depend on the processing

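The log2 differences of the Bckdhb sum kept their direction in every alternative run. With a pseudocount 5 times larger, day 8 against day 0 was 2.27 in place of 2.39. Without the exon 4 to exon 8 circle it was 1.50, and day 4 against day 0 was 0.26 in place of 1.15. Leaving out 1 library each time gave 1.11 to 1.38 for day 8 against day 4 and 2.25 to 2.53 for day 8 against day 0; the lone library of a day is then assumed to vary like the others. The log2 ratio of the exon 4 to exon 8 circle to the rest, day 8 against day 0, was 1.36, 0.46 with the whole locus as denominator and 1.15 to 1.57 with 1 library left out. That of the exon 2 to exon 8 circle reversed from 1.34 to -0.43 with the larger pseudocount. This circle is listed at 0 on day 0, so its ratio there is set by the pseudocount. For day 4 against day 0 its log2 ratio was 7.41 and called with a pseudocount of 1 CPM (limma adjusted p = 0.0168), and 0.46 with the larger one. With 1 CPM 157 of 2068 shares were called against 0. The contrast of day 4 with the mean of days 0 and 8 was not called for the sum in any alternative run, and moved from -0.05 to -0.49 without the exon 4 to exon 8 circle (limma adjusted p = 0.217). With the replicate number as a block, the ratio of the exon 4 to exon 8 circle for day 4 against day 0 was 1.36, and none of the calls named here changed. The calls over the table went from 316 to 304, 367 to 351 and 480 to 453 in the 3 pairs of days. For day 4 against the mean of days 0 and 8 in locus sums they went from 271 to 69. Deviations of same-numbered libraries correlated at -0.02 for each pair of days. Counting error in circRNAs of few reads would also bring such a correlation near 0, so it cannot tell whether the numbers pair the libraries. The Hibadh call was also lost with a pseudocount of 1 CPM (0.0589), with circRNAs short of 10 reads in 2 libraries removed (0.0572) and without the trend (0.115). The Acat1 call between days 0 and 4 was lost in a fit of 4 libraries (0.0757) and without the trend (0.0602), and its circRNA has too few reads for the stricter filter. Over the alternative runs, calls ranged from 0 to 334 for day 4 against day 0 (316 as reported). For day 8 against day 4 they ranged from 3 to 370 (367), and for day 8 against day 0 from 89 to 536 (480). The 89 were among only 1368 circRNAs, those with 10 or more reads in 2 or more libraries. In runs of all 3869 circRNAs the fewest was 259, without the trend. For day 4 against the mean of days 0 and 8 calls ranged from 0 to 555 (420), and for locus sums from 0 to 369 (271). The count test was not run. Depth limits the scarcer members, with at most 12 reads in any library.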
